A study of Mus musculus with 8 samples.

Results

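Of the 8 two-colour arrays of a mouse study of brain vessel maturation 4 compared microvessels of 10-day-old forebrain (P10) directly with adult forebrain microvessels, and these are the subject here. They were taken as the arrays whose title names a comparison of 10-day-old with adult, which gave 2 arrays in each of 2 replicates. In each replicate P10 RNA was labelled with Cy5 and adult RNA with Cy3 on 1 array, and the dyes were exchanged on the other. The remaining 4 arrays carried RNA of 5-day-old (P5) microvessels against adult or P10 RNA. The source at every age was total forebrain microvessels, obtained by Dounce homogenisation, density sedimentation and filtration that kept particles under 70 µm, and 100 ng of total RNA entered labelling. The labels give no treatment, strain, sex or age in weeks of the adults, and do not say whether the replicates were separate animals or pools. The p-values below thus reflect how far these samples differ among themselves, and that spread may be technical. Each replicate was hybridised on a slide of its own, so replicate and slide cannot be told apart.

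A microvessel preparation holds capillary endothelium with the pericytes, smooth muscle and matrix that stay attached to it, and also carries fragments of other brain cells and blood cells. The cell type markers were checked first. All 26 pan-endothelial genes and all 18 pericyte genes tested were well above background in every P10 and adult channel, among them Pecam1, Cdh5 and Pdgfrb. The same held for the 18 microglia, 16 astrocyte and 20 mature neuron genes tested, so the preparation at both ages also held RNA of these cells. In such bulk samples, fewer cells of a type and less RNA per cell cannot be told apart.

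In the mouse forebrain the vessel network is still growing in the second week after birth: endothelial cells sprout and divide, and new vessels lay down a basement membrane and recruit pericytes. Growth stops in the adult, where the endothelium is quiescent. The blood-brain barrier rests on tight junctions, low vesicular transport, carriers for glucose and amino acids, efflux pumps of the ABC family and enzymes that break down transmitters and drugs. Canonical Wnt signalling induces and maintains these barrier properties.

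P10 and adult microvessels differed in 5674 of 20667 genes tested, of which 2849 were higher and 2825 lower at P10 at an adjusted p below 0.05 (limma with Benjamini-Hochberg adjustment, n = 2 replicates). These are 13.8% of the genes tested in the higher and 13.7% in the lower direction, 27.5% together, and serve as the background for each gene group below. From a share near these percentages in one direction, no result about a group is read. The groups were chosen with earlier results of these data known, so their counts are a description and not a test. Of the called genes, 668 were at least 2-fold higher and 639 at least 2-fold lower. The median over all genes was 0.015 on the log2 scale. All differences below are log2 ratios of P10 over adult, so that positive values are higher at P10, and "called" means past this adjusted threshold. Values of single arrays are given in a fixed order: replicate 1 with P10 in Cy5, replicate 1 with the dyes exchanged, replicate 2 with P10 in Cy5 and replicate 2 with the dyes exchanged, with the sign of the exchanged arrays turned. Across genes, which are not independent replicates, the 2 dye orientations correlated at 0.890 in replicate 1 and 0.922 in replicate 2, and the replicate means at 0.834. The call rests on the ratio of 2 ages within a replicate. When the replicates' ages were treated as unpaired samples, 771 genes were called. With the background correction (limma's normexp) fitted on every spot, faulty ones included, 1883 genes were called. The faulty spots were 4, all on the dye-exchanged array of replicate 1, so this setting differs from the main one on that array alone. Of the 507 different genes of the lists below that were called, 193 were still called with the ages unpaired and 309 with that correction. For the groups below, the count without the replicate block is therefore followed in parentheses by the range of the count over the other 12 alternative settings.

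**Figure D1:**
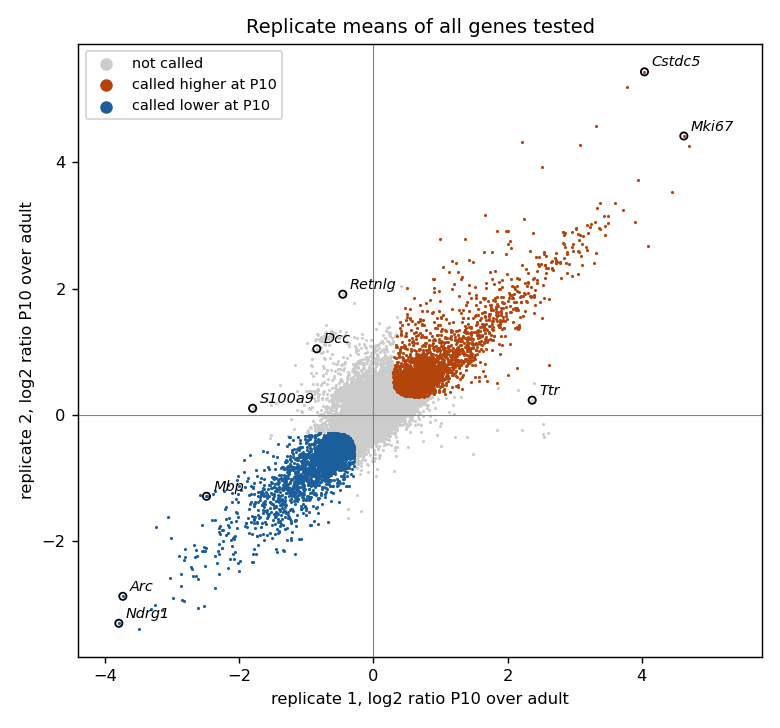
Replicate means of the log2 ratio of P10 over adult for the 20667 genes tested, replicate 1 on the x axis and replicate 2 on the y axis. Genes called higher at P10 (orange, 2849) and lower at P10 (blue, 2825) lie along the diagonal, from Ndrg1 at the bottom left to Cstdc5 and Mki67 at the top right. Labelled grey points away from the diagonal, such as S100a9 and Dcc, had replicates of opposite sign.

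The genes with the highest ratios at P10 were cell division genes, histones and stefin A genes. Mki67, the proliferation marker Ki-67, stood at 4.48, 4.78, 4.47 and 4.36 on the 4 arrays. Its 4 values lay close together, and their mean was 4.52, 23-fold higher at P10 (SE 0.11, adjusted p = 0.000593). Birc5, which encodes the mitotic protein survivin, gave 4.67, 4.74, 4.29 and 4.24, a 22.3-fold difference at the probe used (adjusted p = 0.000593). Its 3 probes ranged from 1.85 to 4.48, and their average was 2.98. Spc25 and Cenpe, both parts of the kinetochore, were 14.2-fold and 10.3-fold higher, and the linker histone H1f5 and the core histones H2ac22 and H2ac4 15.8-fold, 11.1-fold and 10-fold higher. Slco2a1, a prostaglandin transporter and the only transporter among the 12 highest genes, was 11.1-fold higher (log2 3.48, SE 0.11, adjusted p = 0.000593). The remaining 4 of the 12 were the stefins, small inhibitors of cysteine proteases that neutrophil precursors express: Cstdc5, Stfa1, Stfa2 and Stfa2l1. Cstdc5 gave 3.84, 4.24, 5.46 and 5.41, clearly higher in replicate 2 than in replicate 1. Its mean was 4.74 (SE 0.32, adjusted p = 0.00126), the largest of all genes with a symbol that met the naming rule. With normexp on every spot none of the 4 stefins was called (adjusted p = 0.0614 for Cstdc5). Stefin, histone, globin and class I MHC genes have near-identical copies, and a probe may not tell them apart.

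The lowest genes at P10 had mixed roles. Ndrg1, a hypoxia-responsive gene that is also abundant in myelinating cells, gave -3.90, -3.69, -3.44 and -3.17, low on all 4 arrays, with a mean of -3.55 (11.7-fold lower, SE 0.15, adjusted p = 0.00062). Arc, an activity-dependent neuronal gene, followed at -3.31 (9.9-fold lower, adjusted p = 0.00111). Xdh, which encodes xanthine dehydrogenase, was 8.8-fold lower, the semaphorin gene Sema3c 8.75-fold, the prolactin receptor gene Prlr 7.7-fold and the pro-apoptotic gene Pmaip1 7.47-fold. Clic5 of the chloride intracellular channel family, the phosphatase gene Alpl, the monooxygenase gene Fmo2, the interferon-inducible GTPase gene Tgtp2 and the sphingolipid desaturase gene Degs2 were between 6.46-fold and 7.42-fold lower at the probe used. A second probe for Tgtp2 was at -0.69 and one for Prlr at -1.58. Cxcl12, the chemokine ligand of CXCR4, was 9.19-fold lower at the probe used (mean -3.20), but a second probe for the gene was called in the opposite direction at 0.77. The files assign these probes to different transcripts of Cxcl12. Myelin genes fell in 10 and mature neuron genes in 12 of 17 and 20 tested, and their part in the values of Ndrg1 and Arc was not tested.

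**Figure D2:**
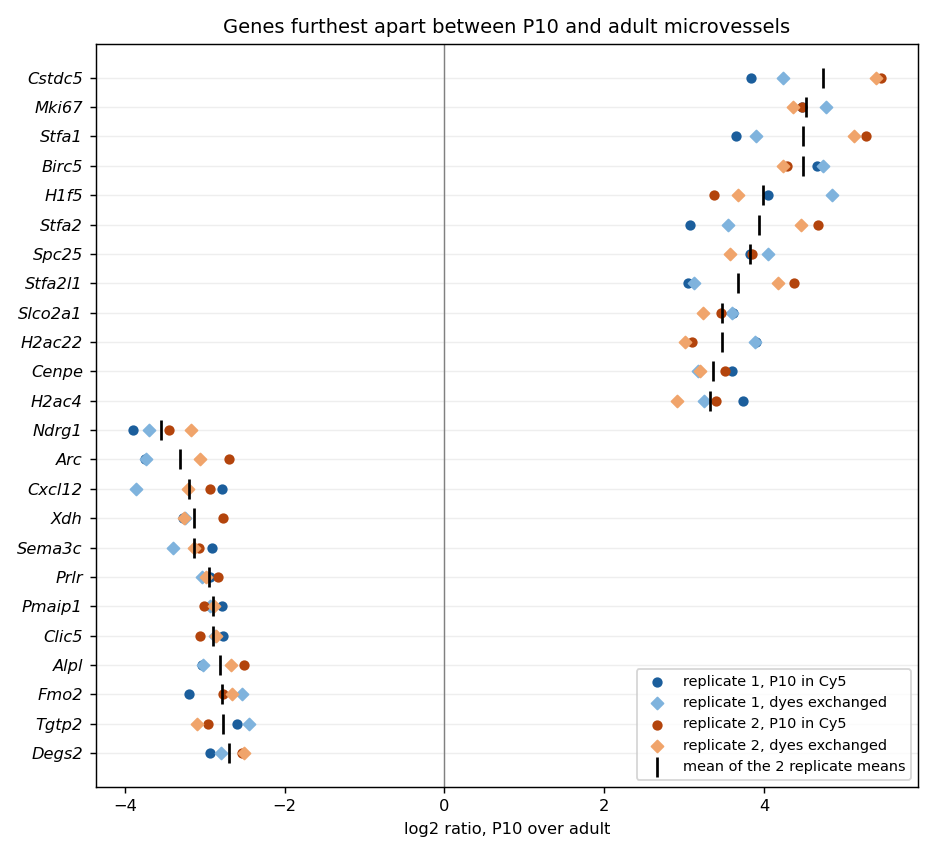
Log2 ratio of P10 over adult on each of the 4 arrays for the 12 highest and the 12 lowest genes named by rule. Symbols mark the replicate and the dye orientation, and the bar marks the mean of the 2 replicate means. Every array of each gene lies on the same side of 0, and the 4 stefins show the widest gap between replicates.

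**Figure D3:**
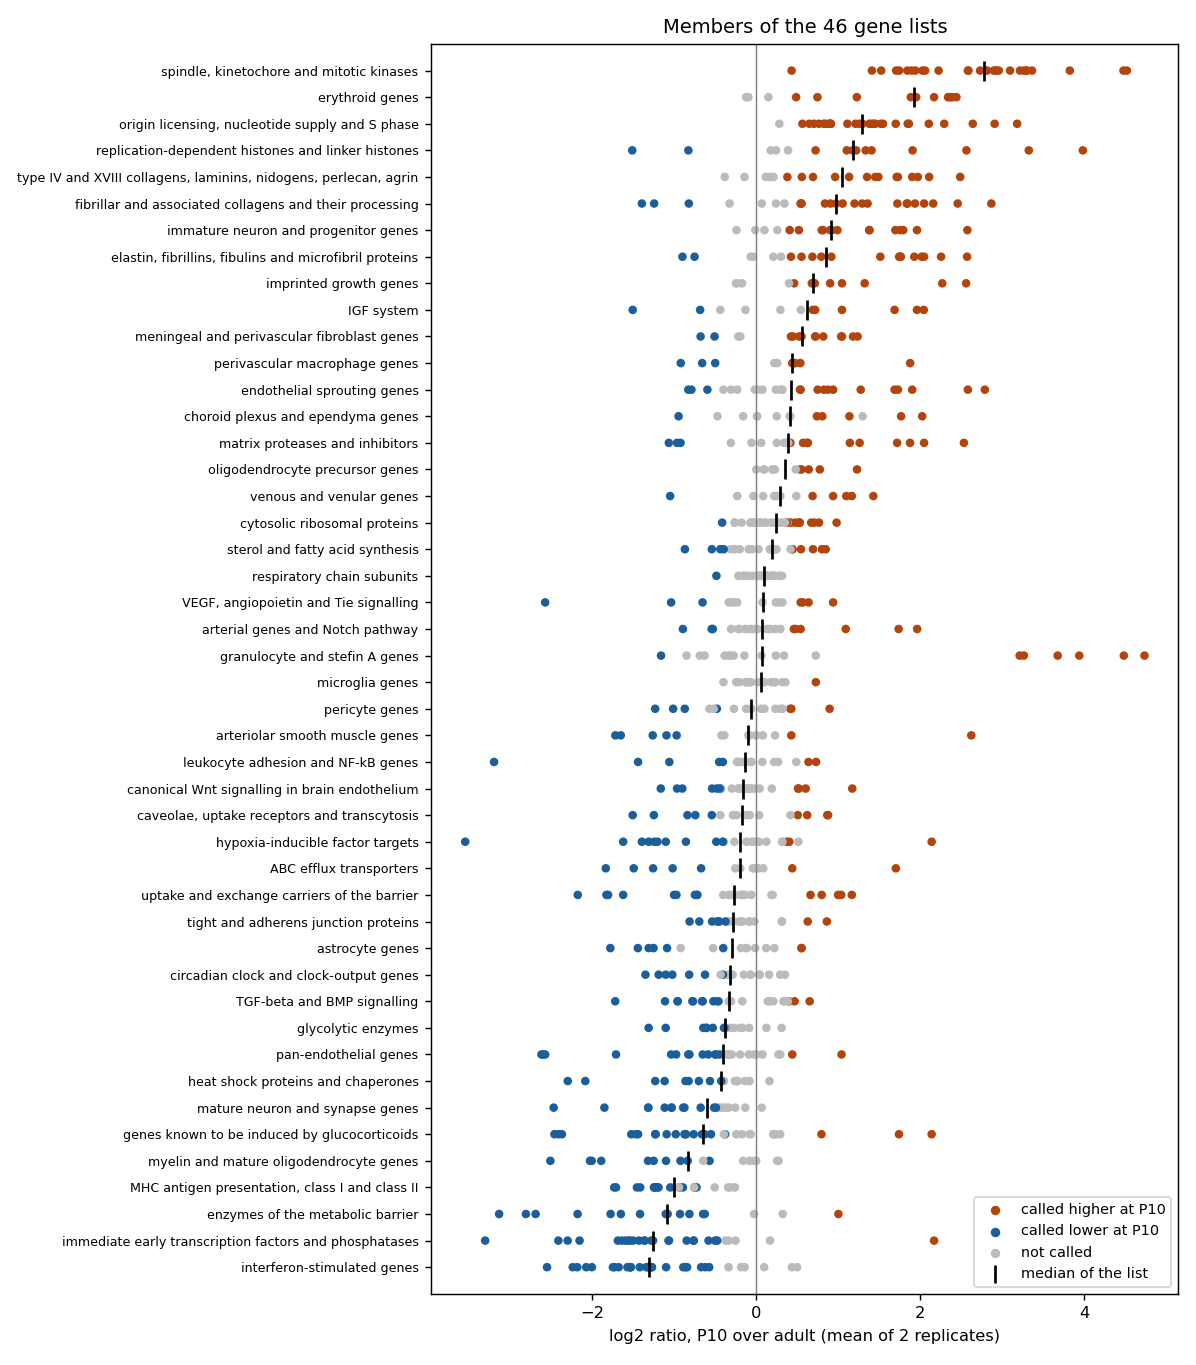
Mean log2 ratio of P10 over adult for each tested member of the 46 gene lists, ordered by the list's median (black bar). Mitotic genes have the highest median (2.77) and interferon-stimulated genes the lowest (-1.30), while respiratory chain genes lie close to 0.

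Proliferation genes rose as a group. Of 30 mitotic genes in the list, 28 were tested and called higher at P10 (background 13.8%), but some of them passed the filter on dim probes only through P10. Among the 21 that were above background at both ages, 21 were called higher, with a median of 2.91, against 0.015 over all genes. 28 of 29 replication genes rose, and 25 of the 26 above background at both ages, with a median of 1.28. Cyclins and their kinase were among the highest: Ccnb1 rose 9.86-fold, Ccna2 9.83-fold, Ccnb2 8.56-fold and Cdk1, the kinase they activate, 9.61-fold. Cdk1 gave 3.48, 3.52, 3.13 and 2.93 on the 4 arrays, all far above 0 (mean 3.27, SE 0.14, adjusted p = 0.000633). These folds depend on the probe: a second probe for Cdk1 was at 0.80, and the lowest of the 3 for Ccnb1 at 1.14. Of the spindle and exit machinery, the microtubule bundling protein gene Prc1 rose 7.78-fold, the anaphase activator Cdc20 7.53-fold, the kinase gene Plk1 7.46-fold and Aurka 5.99-fold. Bub1, Bub1b, Kif11 and Ttk were also called higher, but were not well above background in any adult channel, so no fold is given for them. Immature neuron and progenitor genes rose in 14 of 18 cases and red cell genes in 11 of 14, and their part in the proliferation values was not tested.

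In the replication list, Uhrf1, which carries DNA methylation to the new strand, rose 9.09-fold and the ribonucleotide reductase gene Rrm2, which supplies deoxynucleotides, 7.51-fold. The licensing factor gene Cdt1 rose 6.24-fold, thymidine kinase Tk1 4.9-fold and the E2F family genes E2f8, E2f1 and E2f7 4.3-fold, 2.92-fold and 2.4-fold. Second probes were at 0.60 for Uhrf1 and 0.017 for E2f7. All 6 subunits of the MCM helicase rose, from 0.85 for Mcm4 and 0.91 for Mcm6 to 1.70 for Mcm2 and 1.86 for Mcm5. Tyms, thymidylate synthase, was the one member not called (mean 0.28, adjusted p = 0.0978). Without the replicate block 25 mitotic (21 to 28) and 14 replication genes (25 to 29) were called higher. The 21 is from the setting that tested only the 21 mitotic genes above background at both ages. Where all 28 were tested, the lowest count over the other settings was 26.

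Promoters of these genes are shown because cell cycle genes are known to be controlled through a CHR element (TTTGAA) and CCAAT boxes in mitosis and through E2F sites (TTTCGCGC or TTTGGCGC) in S phase. The 120 bases before the transcription start are given 5′ to 3′ on the gene's strand from RefSeq, mouse build GRCm38.p6, with matches to the motif on either strand in capitals. In Mki67 (chr7:135716380-135716499, minus strand) and Cdk1 (chr10:69352913-69353032, minus strand) the capitals mark TTTGAA, and in Mcm6 (chr1:128359706-128359825, minus strand) and Rfc3 (chr5:151651209-151651328, minus strand) an E2F motif. In Mcm6 matches on the 2 strands overlap in the first run of capitals.
Mki67: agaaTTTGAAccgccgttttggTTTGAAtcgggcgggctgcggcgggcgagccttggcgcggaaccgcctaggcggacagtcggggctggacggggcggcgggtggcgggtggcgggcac
Cdk1: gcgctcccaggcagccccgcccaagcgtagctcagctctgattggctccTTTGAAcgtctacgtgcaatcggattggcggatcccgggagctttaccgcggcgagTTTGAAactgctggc
Mcm6: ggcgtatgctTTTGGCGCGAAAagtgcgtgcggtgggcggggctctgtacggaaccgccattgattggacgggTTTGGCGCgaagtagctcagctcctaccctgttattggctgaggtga
Rfc3: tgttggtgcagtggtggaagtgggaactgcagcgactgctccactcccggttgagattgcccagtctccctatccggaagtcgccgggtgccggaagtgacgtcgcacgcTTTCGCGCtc
Within 250 bases before the start, TTTGAA was present in 8 of the 24 mitotic genes matched by symbol to a promoter sequence (33.3%), against 13% of 11964 genes tested with a promoter sequence. CCAAT was present in 18 of the 24 (75.0% against 39.9%). An E2F motif was present in 5 of 25 replication genes (20% against 1.3%) and in 1 of the 24 mitotic genes. The motifs were not limited to these lists: TTTGAA was present in 6 of 24 interferon genes (25.0%), which fell, and in 4 of 25 replication genes (16%), and CCAAT in 16 of 25 replication genes (64.0%). These are matches of letters, and the binding of no factor was measured.

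Histone genes mostly rose. 10 of 15 tested were higher and 2 lower at P10, and 6 further genes of the list were not on the array. Some passed the filter only through P10. Of the 12 above background at both ages 8 were higher and 2 lower, with a median of 1.26. H1f5 gave 4.05, 4.85, 3.37 and 3.68 and H2ac4 3.74, 3.25, 3.40 and 2.90. The mean of replicate 1 was above that of replicate 2 in both. The variant H2ax, which marks DNA breaks, rose 2.65-fold and H2az1 2.26-fold. In contrast, H2bc4 and the linker histone H1f2 fell 2.85-fold and 1.78-fold. With the ages unpaired, 3 histone genes (8 to 11) were called higher and 1 (2) lower.

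Genes of the vessel wall matrix were higher at P10. In the basement membrane list, 14 of 20 genes rose and none fell (median 1.05). The collagen IV chains that form the network of every vascular basement membrane rose together, Col4a1 3.74-fold and Col4a2 2.81-fold. Col4a1 gave 2.06, 1.96, 1.67 and 1.92, and Col4a2 1.57, 1.60, 1.28 and 1.51. In both genes all 4 values were well above 0 and the mean of replicate 1 was slightly higher (adjusted p = 0.000914 and 0.00139). Col18a1, the source of endostatin, rose most (5.61-fold, SE 0.13 on the log2 scale). Among laminin chains, Lamb1 rose 4.32-fold, Lama1 3.92-fold, Lama4, the chain typical of endothelium, 2.74-fold and Lamc1 1.95-fold. Lama5, the other main endothelial alpha chain, stood at -0.38 (adjusted p = 0.148) and Lamb2 at -0.14 (adjusted p = 0.425), both not called. The linkers Nid1 and Nid2 rose 3.28-fold and 3.32-fold. In the fit with no replicate block, the list had 10 genes called higher (11 to 14).

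Fibrillar collagens and elastic fibre genes also rose. In the fibrillar collagen list 18 of 25 genes were higher and 3 lower (median 0.97). Col3a1 gave 2.73, 2.99, 2.79 and 2.96, with little spread between the arrays, and rose 7.31-fold (SE 0.10, adjusted p = 0.000593). The collagen I chains Col1a1 and Col1a2 rose 5.5-fold and 4.14-fold, and the collagen VI chains Col6a1, Col6a2 and Col6a3 between 3.3-fold and 4.47-fold. The cross-linking oxidases Loxl2, Loxl1 and Lox rose 3.57-fold, 2.56-fold and 1.96-fold. The 3 that fell were Col5a3 (-0.82) and the prolyl hydroxylases P4ha1 (-1.40) and P4ha2 (-1.25), which are needed to fold collagen and are also induced in hypoxia. Sparc, a collagen-binding protein, was called higher (mean 0.55), but depended on the dye: it gave 1.88, -0.43, 1.14 and -0.38, positive with P10 in Cy5 and negative with the dyes exchanged.

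Elastin and the microfibril genes moved with the collagens: 14 of 20 rose and 2 fell. Mfap2, a microfibril protein, rose 5.95-fold, the fibulin Fbln5, which assembles elastic fibres, 4.78-fold at the probe used (another was at 0.72), the fibrillins Fbn2 and Fbn1 4.14-fold and 4.05-fold, and Eln itself 3.81-fold. Eln gave 1.79, 1.79, 2.08 and 2.05. Its values in replicate 2 were the higher ones and all 4 lay far above 0. Efemp1 and Ltbp4 fell (-0.90 and -0.75). Fibronectin, Fn1, was at 0.30 and was not called (adjusted p = 0.0803). Proteases that remodel matrix rose with their inhibitor: Mmp14 rose 3.67-fold, Mmp2, which it activates, 3.29-fold, Adamts9 4.14-fold and Timp1 5.79-fold. Timp3, Reck, which also restrains proteases, and Adamts1 fell (-1.07, -0.97 and -0.92). In all, 11 of 22 genes of that list rose. Of the 20 above background at both ages, 9 rose and 3 fell. Genes of meningeal and perivascular fibroblasts, which make fibrillar collagen in brain, were higher in 11 and lower in 2 of 15, with a median of 0.55. Their part in the collagen values was not tested. When replicates were not paired, 10 fibrillar collagen (10 to 18), 7 elastic fibre (7 to 14), 5 protease (6 to 13) and 0 fibroblast genes (3 to 11) were called higher. In that fit 2 fibrillar collagen genes (2 to 4) and no elastic fibre (1 to 2), protease (2 to 3) or fibroblast gene (1 to 2) were called lower.

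Pan-endothelial genes were split, with more lower than higher. 13 of 26 fell (background 13.7%) and 2 rose, with a median of -0.40. The lowest were Ly6a, Ly6c1 and Flt1. Ly6c1, a surface protein of brain endothelium, gave -2.46, -2.83, -2.37 and -2.74 and fell 6.07-fold (SE 0.10, adjusted p = 0.000607). Flt1, the decoy receptor that holds VEGF away from KDR, gave -2.76, -2.67, -2.51 and -2.36, low on all 4 arrays, and fell 5.96-fold (SE 0.12, adjusted p = 0.000668). Kdr, the signalling VEGF receptor, stood at 0.077 (SE 0.10) and Cdh5, the endothelial cadherin, at -0.09 (SE 0.11), neither called. Pecam1 fell by 0.49 and Emcn, endomucin, by 1.71 on the log2 scale, whereas Clec14a rose 2.06-fold. Without the replicate block 5 pan-endothelial genes were called lower (9 to 13) and 1 higher (1 to 2).

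Genes of sprouting endothelium rose in 12 of 24 cases and fell in 3. Apln, a peptide that tip cells secrete, gave 2.89, 3.04, 2.09 and 2.30, and its receptor Aplnr 2.85, 3.11, 2.51 and 2.69. Both rose strongly, 5.99-fold and 6.91-fold (adjusted p = 0.00152 and 0.000668), and Apln was higher in replicate 1. Cxcr4 rose 2.42-fold and Esm1, a tip cell proteoglycan, 1.68-fold. Dll4, the Notch ligand of tip cells, stood at -0.018 and Angpt2, a vessel-destabilising ligand, at 0.24, both not called. Pdgfb, the endothelial ligand that recruits pericytes, fell by 0.79 on the log2 scale. Of the VEGF ligands, Vegfc and Pgf rose (0.54 and 0.64), Vegfd fell (-0.66), and Vegfa had unequal replicates (0.024 and 0.62, adjusted p = 0.212). The receptor phosphatase Ptprb, which dampens Tie2 signalling, fell by 1.04, Tek, which encodes Tie2, stood at -0.33 without a call, and its ligand Angpt1 rose by 0.57. In all, 4 of 15 genes of the VEGF and angiopoietin list rose and 3 fell. With the ages unpaired, no gene of that list was called higher (1 to 5) and 2 lower (2 to 4).

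In the insulin-like growth factor (IGF) system, 6 of 12 genes rose and 2 fell. The binding protein genes Igfbp4 and Igfbp3 rose 4.13-fold and 3.22-fold and the fetal ligand Igf2 2.07-fold, while the receptor Igf1r fell 2.84-fold. Igf1r gave -1.60, -1.47, -1.65 and -1.31, low on every array (adjusted p = 0.00121). Igf2 also belongs to the imprinted growth genes, of which 9 of 13 rose and none fell. The largest of these were Dlk1, a Notch-like growth inhibitor of immature cells (5.9-fold, with another probe at 0.92), the zinc finger gene Plagl1 (4.82-fold, with the lowest of 4 probes at 0.10) and Mest (2.5-fold). For Meg3 the mean was 0.71 at the probe used and another probe was at -0.16. In the fit with no replicate block, 2 imprinted genes were called higher (5 to 9), 6 sprouting genes (9 to 13) and 3 genes of the IGF list (5 to 7), while no sprouting gene (2 to 4) and 1 gene of the IGF list (1 to 3) were lower.

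Arterial genes and mural cell genes did not move one way. Among 22 arterial and Notch genes 6 rose and 3 fell, and the median of 0.069 turned negative when all probes of a gene were averaged. The arterial gap junction genes Gja5 and Gja4 rose most (3.9-fold and 3.33-fold). Gja5 gave 1.84, 1.71, 2.25 and 2.07, with replicate 2 the higher. Heyl, a Notch target of mural cells, rose 2.13-fold, while the Notch target Hey1 and the ligand Jag2 fell (-0.54 and -0.53). Venous genes included Ackr1, a chemokine-binding receptor of venules, which rose 2.69-fold, and the venous transcription factor Nr2f2, which rose 1.61-fold (5 of 13 rose, 1 fell). When replicates were not paired, 3 arterial genes were called higher (3 to 6) and 1 lower (1 to 4), and no venous gene was called higher (4 to 6) or lower (1).

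Of 15 smooth muscle genes 2 rose and 5 fell. Actg2, an actin of smooth muscle that is otherwise typical of the gut, gave 2.14, 2.61, 2.85 and 2.90 and rose 6.17-fold (SE 0.15, adjusted p = 0.00089). Its values in replicate 2 were higher than those in replicate 1. The main arteriolar actin gene Acta2 stood at 0.23 (adjusted p = 0.274) and Myh11, smooth muscle myosin, at -0.42 (adjusted p = 0.27), both not called. The calcium-handling genes Casq2 and Pln fell 3.14-fold and 2.4-fold, the synuclein gene Sncg 3.29-fold and the contractile regulator Cnn1 1.96-fold. Pericyte genes rose in 3 and fell in 4 of 18, with a median of -0.064 that changed sign under another normalisation. Vtn, the matrix protein vitronectin, fell 2.35-fold, the P5-type ATPase gene Atp13a5 2.02-fold and the potassium channel subunit Abcc9 1.83-fold. Pdgfrb, the receptor for Pdgfb, stood at 0.06 (SE 0.12), and the transcription factor gene Tbx18 rose 1.86-fold. With normexp on every spot Actg2 was not called (adjusted p = 0.0629). Without the replicate block 1 smooth muscle gene (0 to 2) and 0 pericyte genes (0 to 3) were called higher, and 4 smooth muscle genes (4 to 5) and 1 pericyte gene (3 to 5) lower.

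Enzymes that form the metabolic part of the barrier were mostly lower at P10. Of 16 enzymes of the metabolic barrier, 13 fell and 1 rose, with a median of -1.09. Xdh gave -3.28, -3.24, -2.77 and -3.26 and Alpl, alkaline phosphatase, a classical marker of brain capillaries, -3.04, -3.02, -2.51 and -2.67. Both were low on every array. Ddc, which decarboxylates L-DOPA at the barrier, fell 4.53-fold, the monoamine oxidase genes Maob and Maoa 3.43-fold and 1.57-fold, and Ggt1, a further marker enzyme of brain capillaries, 3.14-fold. The detoxifying genes Gstm1 and Ephx1 fell 2.67-fold and 2.12-fold. Cyp1b1 was the one that rose, 2-fold. With the ages unpaired, 8 of these genes were called lower (10 to 13) and none higher (1 to 2).

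Among 13 ABC transporters 5 fell. Abcb1a, the main P-glycoprotein gene of brain endothelium, gave -1.91, -1.91, -1.82 and -1.69, with little spread between the arrays, and fell 3.57-fold (SE 0.11, adjusted p = 0.000899). Abcb1b fell 2.82-fold, Abcc4 2.39-fold and Abcg2, the breast cancer resistance protein, 2.03-fold. Abca1, which exports cholesterol, rose 3.26-fold, and Abcd3 rose by 0.44 on the log2 scale. In the fit with no replicate block, 3 transporters were called lower (4 to 6) and 1 higher (1 to 2).

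Of 26 uptake carriers 9 fell and 5 rose. Slc2a1, the barrier glucose transporter GLUT1, gave -1.01, -1.79, -1.42 and -2.27, negative on every array but lower where the dyes were exchanged in both replicates, and fell 3.08-fold (SE 0.14, adjusted p = 0.00203). The organic anion carrier Slco1a4 fell 4.52-fold, the thiamine carrier Slc19a3 3.55-fold, the monocarboxylate carrier gene Slc16a4 3.5-fold and the thyroid hormone carrier Slco1c1 1.65-fold. Slc16a1, which carries lactate and ketone bodies, stood at 0.19 (SE 0.10) and Slc7a5, the large neutral amino acid carrier, at -0.06 (SE 0.12), neither called. Slc38a5, a glutamine carrier, and the nucleoside carrier Slc29a1 rose 2.24-fold and 2.05-fold. When replicates were not paired, 4 carriers were called lower (7 to 12) and 1 higher (3 to 5).

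Junction genes had a median of -0.28. Of 21 tested 7 fell and 2 rose. Cldn5, the main claudin of brain endothelium, gave -0.48, -0.48, -0.55 and -0.31. All 4 values were negative and the mean was -0.46 (1.37-fold lower, SE 0.10, adjusted p = 0.0274). Ocln, occludin, fell 1.62-fold, Jam2 1.76-fold and Tjp1, which encodes the scaffold ZO-1, 1.37-fold. Cldn3 and Cgn, which epithelia also express, rose (0.86 and 0.63), and both were higher in replicate 1. These junction calls depended on the processing. With normexp on every spot 1 junction gene was called lower and 0 higher, and Cldn5 had an adjusted p of 0.246. Median centring left 2 lower, and leaving out the dye-exchanged array of slide 1 left 4. The deposited log ratios gave 0 higher. No block for the replicate left 0 lower and 0 higher.

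In the list of caveolae, uptake receptors and transcytosis 4 of 16 rose and 5 fell. Plvap, which forms the diaphragms of fenestrae and caveolae and is lost as the barrier matures, rose 1.84-fold (log2 0.88, SE 0.10, adjusted p = 0.00446). Tfrc, the transferrin receptor, rose 1.82-fold at the probe used (log2 0.87), but its probes averaged 0.34. The caveolar genes Cavin2 and Cav2 fell 2.38-fold and 1.79-fold, Cav1 stood at -0.24 without a call (adjusted p = 0.155), and Cavin3 rose by 0.62. Mfsd2a, a lipid carrier that suppresses transcytosis, was at -0.12 (SE 0.11) and was not called. Plvap was not called with normexp on every spot (adjusted p = 0.0617). Without the replicate block 0 genes of the list were called higher (1 to 5) and 2 lower (4 to 6).

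Of 26 Wnt pathway genes 7 were lower and 4 higher, the latter a share near the background of 13.8%. Lef1, the transcription factor that marks active signalling, gave -1.03, -1.36, -0.94 and -1.33, low on every array, and fell 2.24-fold (adjusted p = 0.00206). Axin2, a target that feeds back on the pathway, fell by 0.43, and the target Apcdd1 rose by 0.52 and Sp5 by 1.17. Reck, a coreceptor component for Wnt7 ligands, fell by 0.97, and its partner Adgra2 stood at 0.19, the ligand genes Wnt7a and Wnt7b at -0.13 and -0.15 and the receptor Fzd4 at 0.041, none of them called. Without the dye-exchanged array of slide 1, 4 of the Wnt genes were called lower, and without the replicate block 0 lower (2 to 7) and 0 higher (1 to 4).

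TGF-beta and BMP signalling genes were lower in 11 of 23 cases and higher in 3. The receptors that endothelium uses for BMP9 and BMP10 fell: Acvrl1, which encodes ALK1, gave -1.78, -1.70, -1.77 and -1.65 and fell 3.3-fold (SE 0.10, adjusted p = 0.00092), Bmpr2 fell 1.95-fold and the coreceptor Eng 1.57-fold. The values of Acvrl1 differed little between the arrays. Of the targets of this pathway in the list, Id1 fell by 0.96, Id3 by 0.46, Smad6 by 0.78 and Smad7 by 1.11 on the log2 scale. The target Id2 stood at -0.17 and the ligand genes Tgfb1, Tgfb2 and Tgfb3 at 0.33, -0.34 and 0.21, none of them called. Tgfbi, a secreted TGF-beta target, rose by 0.65. With the ages unpaired, 1 gene of the list was called lower (7 to 13) and none higher (0 to 5).

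Interferon-stimulated genes were the list with the lowest median at P10, -1.30. 26 of 32 fell and none rose. Ifit1, an antiviral protein that binds foreign RNA, gave -2.43, -2.30, -3.02 and -2.47, low on all 4 arrays, and fell 5.87-fold (SE 0.13, adjusted p = 0.000737). The guanylate-binding protein genes Gbp5 and Gbp2 fell 4.72-fold and 4.54-fold, the oligoadenylate synthetase Oas1a 4.21-fold and the ubiquitin-like modifier Isg15 3.32-fold. Of the transcription factors that act downstream of the receptors, Stat2 fell by 0.84 and Irf9 by 0.89, and the interferon regulatory factors Irf7 and Irf1 by 1.34 and 1.32. Cxcl10 had replicates of opposite sign (1.49 and -0.62), as did Gbp6. Rsad2, which encodes viperin, was at 0.50 without a call (adjusted p = 0.125). In the fit with no replicate block, 12 were called lower (18 to 27).

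Class I antigen presentation, which interferon induces, was lower as well. Of 23 MHC and processing genes 16 fell and none rose (median -1.0). B2m, the light chain of every class I molecule, gave -1.63, -1.38, -1.97 and -1.95, lower in replicate 2 than in replicate 1, and fell 3.32-fold (SE 0.14, adjusted p = 0.00182). The heavy chains H2-K1 and H2-D1 fell 2.37-fold and 2.37-fold, the immunoproteasome subunits Psmb9 and Psmb8 3.27-fold and 2.67-fold, and Nlrc5, the transactivator of class I genes, 2.74-fold at the probe used (another was at -0.027). The peptide transporter subunit Tap2 fell 2.34-fold, whereas Tap1 stood at -0.34 (adjusted p = 0.183). The class II chains H2-Aa, H2-Ab1 and H2-Eb1 were not called, with replicate 1 near -0.39, -0.37 and -0.24 and replicate 2 at -1.5, -1.63 and -1.27. Cd74, their chaperone, fell (-1.19, adjusted p = 0.0225, and 0.12 with normexp on every spot). When replicates were not paired, 7 genes of the list were called lower (11 to 20).

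Interferon-stimulated genes are known to be switched on through the interferon-stimulated response element (ISRE), searched as GAAA, any 2 bases, GAAA. Ifit1 (chr19:34640769-34640888, plus strand) and Gbp2 (chr3:142620543-142620662, plus strand) are shown as 2 of the genes that fell, with the element in capitals, where it lies on the opposite strand and so reads TTTC, 2 bases, TTTC.
Ifit1: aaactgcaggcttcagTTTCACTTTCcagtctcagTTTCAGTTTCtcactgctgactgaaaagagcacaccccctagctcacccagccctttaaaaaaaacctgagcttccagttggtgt
Gbp2: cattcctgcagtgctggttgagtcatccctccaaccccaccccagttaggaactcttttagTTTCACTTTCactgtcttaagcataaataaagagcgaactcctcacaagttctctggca
The letters were present within 250 bases before the start in 14 of the 24 interferon list genes with a promoter sequence (58.3%), against 3.2% of the 11964 genes.

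Genes of the immediate response to stimuli were lower at P10. Of 29 immediate early genes 23 fell and 1 rose, with a median of -1.26. Fos gave -1.92, -2.06, -2.27 and -2.37, low on all 4 arrays, and fell 4.46-fold (SE 0.12, adjusted p = 0.000899, and 0.0543 with normexp on every spot). Its partner Jun fell 3.02-fold, the orphan receptor Nr4a1 4.93-fold, the zinc finger factor Egr1 2.69-fold and the phosphatase Dusp1, which shuts MAP kinases off, 5.33-fold. Klf2 and Klf4, which blood flow induces in endothelium, fell 3.12-fold and 2.83-fold. Myc was the exception: it gave 2.03, 2.48, 1.96 and 2.21, high on all 4 arrays, and rose 4.5-fold (SE 0.11, adjusted p = 7e-04). Gadd45b stood at 0.17 and the YAP target Ccn2 at -0.25, neither called, while Ccn1 fell 2.94-fold. Fosl2 fell by 1.07 at the probe used, but another of its probes was at 0.0096. Mature neuron genes, of which 12 of 20 fell, moved in the same direction, and their part in these values was not tested. Without the replicate block 12 genes were called lower (13 to 24).

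Serum response factor, which drives many immediate early genes, binds the CArG box, a run of A and T bases between CC and GG. Egr2 (chr10:67537446-67537565, plus strand), which fell 2.58-fold, and Zfp36 (chr7:28379229-28379348, minus strand), which fell by 0.50 on the log2 scale, are the genes of the list with this box within 250 bases before the start, shown in capitals.
Egr2: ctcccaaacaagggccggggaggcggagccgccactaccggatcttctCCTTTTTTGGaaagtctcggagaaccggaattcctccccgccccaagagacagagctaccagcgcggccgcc
Zfp36: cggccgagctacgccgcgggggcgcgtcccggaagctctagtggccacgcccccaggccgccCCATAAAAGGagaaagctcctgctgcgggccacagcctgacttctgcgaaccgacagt
They are 2 of 23 list genes with a promoter sequence (8.7%), against 1.5% of the 11964 genes.

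Genes known to be induced by glucocorticoids fell in 18 of 30 cases and rose in 3. The metallothionein Mt2 gave -2.64, -2.69, -2.14 and -2.38 and Mt1 -2.53, -2.83, -1.79 and -2.34. Both were low on all arrays, with the lower mean in replicate 1, and fell 5.51-fold and 5.17-fold (adjusted p = 0.000821 and 0.00134). The cell cycle inhibitor Cdkn1a fell 2.77-fold, the NF-kB inhibitor Nfkbia 2.72-fold, Klf9 2.13-fold and the kinase gene Sgk1 1.98-fold. Tsc22d3, which encodes GILZ, fell by 0.76, and the receptor gene Nr3c1 by 0.66. Against this direction, Fkbp5, a cochaperone of the receptor, rose by 0.80 (adjusted p = 0.0059, and 0.0558 with normexp on every spot), the lipase inhibitor Angptl4 rose 4.41-fold and Hif3a 3.34-fold. Pdk4 and Per1 stood at -0.082 and -0.067, not called. With the ages unpaired, 8 were called lower (14 to 19) and 2 higher (1 to 3).

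Heat shock genes fell in 9 of 17 cases and none rose. Hspa1a, the inducible HSP70, gave -2.56, -2.42, -2.11 and -2.11, low on all arrays, and fell 4.92-fold (SE 0.13, adjusted p = 0.00089), and the small heat shock gene Hspb1 fell 4.25-fold. The cochaperone Hsph1 fell 2.35-fold and the constitutive Hspa8 and Hsp90aa1 1.77-fold and 1.62-fold. The mitochondrial chaperonins Hspd1 and Hspe1 (-0.082 and 0.16) and the endoplasmic reticulum chaperone Hspa5 (-0.23) were not called. The heat shock element, searched as the triplets GAA, TTC and GAA with any 2 bases between them, was present in 2 of 13 of these genes with a promoter sequence (15.4%), against 0.5% of all. Clock genes fell in 7 of 18 cases, led by Arntl, which encodes BMAL1 (-1.35), and its repressor Nr1d1 (-1.19), while Per1, Per2 and Per3 were not called. In the fit with no replicate block, 4 heat shock genes (6 to 10) and 2 clock genes (4 to 9) were called lower.

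**Figure D4:**
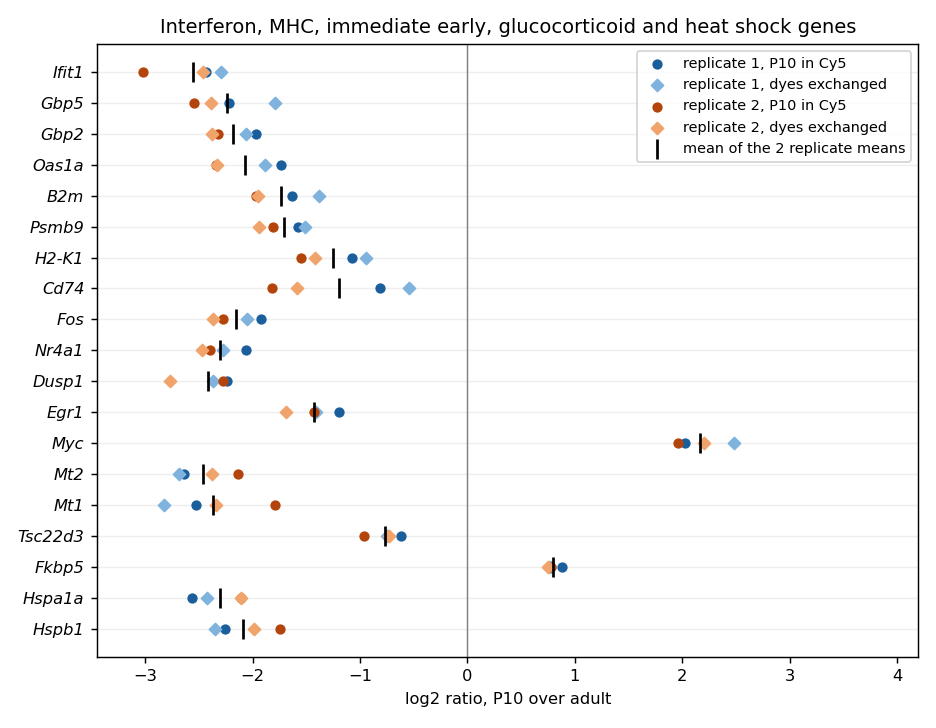
Log2 ratio of P10 over adult on each of the 4 arrays for named genes of the interferon, MHC, immediate early, glucocorticoid and heat shock lists, with the mean of the replicate means as a bar. All lie below 0 on every array except Myc, near 2, and Fkbp5, near 0.8. Cd74 shows the widest gap between the replicates.

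Hypoxia-inducible factor targets were mixed, 10 of 26 lower and 3 higher (median -0.19). Beside Ndrg1 and Slc2a1, Bnip3 fell 2.31-fold and P4ha1 2.63-fold. The genes that rose were Angptl4 (4.41-fold), Pdk1 and Egln3 (0.37 and 0.40). Glycolytic enzymes fell in 8 of 16 cases and none rose. The lowest were the isoforms of astrocytes and neurons, Aldoc (-1.31) and Eno2 (-1.10), while Eno1 and Gapdh stood at -0.086 and -0.19, neither called. Respiratory chain genes hardly differed: Cox8a fell by 0.49 and the other 27 of 28 were not called, with a median of 0.089. Of 35 ribosomal protein genes 11 rose and 1 fell, with Rplp0 the highest at 0.98. Sterol and fatty acid genes rose in 6 and fell in 4 of 25, from Sqle at 0.85 to Scd1 at -0.87. Leukocyte adhesion and NF-kB genes fell in 5 and rose in 2 of 19. Without the dye-exchanged array of slide 1, 7 ribosomal genes were called higher and 3 adhesion and NF-kB genes lower. When replicates were not paired, 6 hypoxia genes were called lower (8 to 10) and 1 higher (1 to 3), 1 ribosomal gene higher (2 to 13) and 2 adhesion and NF-kB genes lower (3 to 5). No glycolytic, respiratory chain or sterol gene was then called in either direction. Over the other settings 2 to 8 glycolytic genes were lower, and 2 to 6 sterol genes higher and 1 to 4 lower.

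RNA of other cells changed along with the vessel genes. Immature neuron genes rose in 14 of 18 cases and none fell: the microtubule protein of migrating neurons Dcx rose 3.47-fold, the tubulin Tubb3 2.61-fold and Marcksl1 5.97-fold. Mature neuron genes fell in 12 of 20 and none rose, with Camk2a, the synaptic kinase, 3.61-fold and its inhibitor Camk2n1 5.55-fold lower. Myelin genes fell in 10 of 17, and none rose. Of the 15 above background at both ages, 9 fell. Mbp, a protein that compacts the myelin sheath, gave -2.53, -2.45, -1.44 and -1.15, much lower in replicate 1 than in replicate 2, and its 3 probes ranged from -1.89 to -0.34, whereas Mal was close between replicates (-2.08 and -1.94). Oligodendrocyte precursor genes rose in 5 of 12, among them Gpr17 (2.35-fold). Without the replicate block 5 immature neuron genes were called higher (12 to 14), 2 mature neuron genes (8 to 14) and 4 myelin genes (8 to 12) lower.

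Astrocyte genes fell in 6 and rose in 2 of 16. Glul, glutamine synthetase, fell 2.72-fold and S100b 3.44-fold, and the endfoot water channel Aqp4 rose by 0.55. Slc1a2, the astrocyte glutamate carrier, had unequal replicates and was not called (-1.52 and -0.32, adjusted p = 0.0654). Of 18 microglia genes only the fractalkine receptor Cx3cr1 was called (0.73), and the median was 0.053. Perivascular macrophage genes rose in 6 and fell in 3 of 11, with Lyve1, a hyaluronan receptor, 3.67-fold higher. With the ages unpaired, no astrocyte (0 to 2 higher and 5 to 7 lower), microglia (0 to 1 higher) or oligodendrocyte precursor gene (2 to 5 higher) was called, and 1 macrophage gene was higher (1 to 6) and none lower (0 to 3). Normexp on every spot likewise gave 1 macrophage gene higher, and median centring and the deposited log ratios 2 each.

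Red cell genes rose in 11 of 14 cases, and in 10 of the 12 above background at both ages. Alas2, the erythroid enzyme of haem synthesis, gave 1.90, 2.05, 2.99 and 2.83, higher in replicate 2, and rose 5.44-fold (adjusted p = 0.00256). The globin gene Hbb-bs rose 5.19-fold. Hba-a1, Hba-a2 and Hbb-bt were called higher too, but their values depended on the dye: Hba-a1 gave 3.02, 0.98, 3.64 and 1.77, with the higher values where P10 was in Cy5. Granulocyte genes other than the stefins did not follow them. S100a9 and S100a8, the calprotectin subunits, stood at -1.80 and -1.53 in replicate 1 and at 0.10 and 0.16 in replicate 2, and Camp, Ltf, Ngp and Mpo also had replicates of opposite sign. Chil3 fell (-1.16). In all, 6 of 19 genes of that list rose, each of them a stefin A family gene, and 1 fell. With normexp on every spot 0 of them were called higher. Choroid plexus genes differed between replicates as well: the list's median was 0.84 in replicate 1 and 0.10 in replicate 2, and Ttr, transthyretin, stood at 2.37 and 0.23 (adjusted p = 0.105). Of the 15 choroid plexus and ependyma genes tested 5 rose and 1, Kl, fell (-0.95). In 6 of the 15 the replicates had opposite signs. Among those that rose, Aqp1 and Otx2 were 4.07-fold and 3.41-fold higher. In the fit with no replicate block, 5 red cell genes (7 to 12) and no choroid plexus gene (1 to 6) were called higher. No choroid plexus gene (0 to 1) was then called lower. How far blood, choroid plexus and glial RNA bear on the other values was not tested.

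For 17 of 4007 genes with 2 or more probes kept, probes were called in opposite directions, so that their direction depends on the probe. Beside Cxcl12 the largest such differences were in Srsf7 (0.74 and -0.74), Bcan and Ppfia4, in Hspa4, where 1 probe was at 0.53 and 2 others at -0.91 and -1.01, and in Brix1, Zfp672 and H2aj. Bcan, a proteoglycan of precursor cells and astrocytes counted above as higher, is one of them.

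A further 85 genes were below -0.5 in replicate 1 and above 0.5 in replicate 2, against 2 genes the other way. None of these is a called difference of age. The netrin receptor gene Dcc gave -1.20, -0.50, 1.39 and 0.70, negative in both orientations of replicate 1 and positive in both of replicate 2. Rhox8, Pigr, Gab3, Akap7 and Ermn showed the same pattern, with replicate means from -0.84 to -0.73 in replicate 1 and from 1.17 to 1.27 in replicate 2. For Ermn, a myelin gene, the mean was 0.25 at the probe used and -0.77 at a second probe. Of the 80 of these genes in the fit of all 8 arrays, 78 were higher at P5 than at P10.

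The other 4 arrays placed P10 between or outside the remaining ages. P5 was compared with P10 in a fit of all 8 arrays. The P5 and P10 comparisons share the adult channels, and P5 RNA was always labelled with Cy5, so its dye effect rests on the dye term of the other arrays. This fit called 4770 of 20331 genes higher (23.5%) and 3984 lower (19.6%) at P5. With each array only centred on its median, the split was 3010 higher and 5444 lower. Among genes higher at P10 than in adults, 766 were lower and 653 higher at P5 than at P10, and 1372 were not called. Among genes lower at P10, 868 were lower still and 418 higher at P5.

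Endothelial and arterial genes were lower at P5 than at P10 in nearly all cases: 25 of 26 pan-endothelial and 20 of 22 arterial and Notch genes. Their list medians against adult were -1.56 and -1.36 at P5, and -0.40 and 0.069 at P10. Red cell and immature neuron genes went the other way, 12 of 14 and 16 of 18 being higher at P5. Of the mitotic genes 19 of 28 were lower at P5 than at P10, and none higher. With median centring only, 8 immature neuron genes were higher at P5, and with no replicate block 6 mitotic genes were lower. Interferon genes and genes of MHC antigen presentation, already low at P10, were lower at P5 in 21 of 32 and 16 of 23 cases. In the other direction, 4 interferon genes and no MHC gene were higher at P5 than at P10.

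Some genes were higher at P10 than at both other ages. By rule, Actg2, Fbln5, Col18a1, Gja5, Adamts16 and Adh1 were named, ranked by the smaller of their differences from the other ages. Those differences contain the same P10 estimate, so they are not independent. In the fit of all arrays Gja5 was 1.91 above adult at P10 and -1.39 relative to adult at P5, and its difference of P5 from P10 was -3.30 (SE 0.15, adjusted p = 0.00349). Fbln5 likewise was 2.23 at P10 and -0.79 at P5. Actg2 was near the adult level at P5 (0.25) and 2.55 above it at P10, as was the alcohol dehydrogenase Adh1 (0.16 and 1.97). In the opposite direction, Npas4, a neuronal activity factor, Scn1a, a sodium channel, Car11, Cnnm1, Sh2d5 and Kndc1 were lower at P10 than at both. Scn1a was -1.32 at P10 and 0.18 at P5 relative to adult (P5 minus P10 1.5, adjusted p = 0.00619). Npas4 was -1.66 at P10 and -0.14 at P5. For Kndc1 and Scn1a the size depended on the probe. The 3 probes of Kndc1 ranged from -1.28 to -0.086 in P10 over adult, and the 2 of Scn1a from -1.31 to -0.44.

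**Figure D5:**
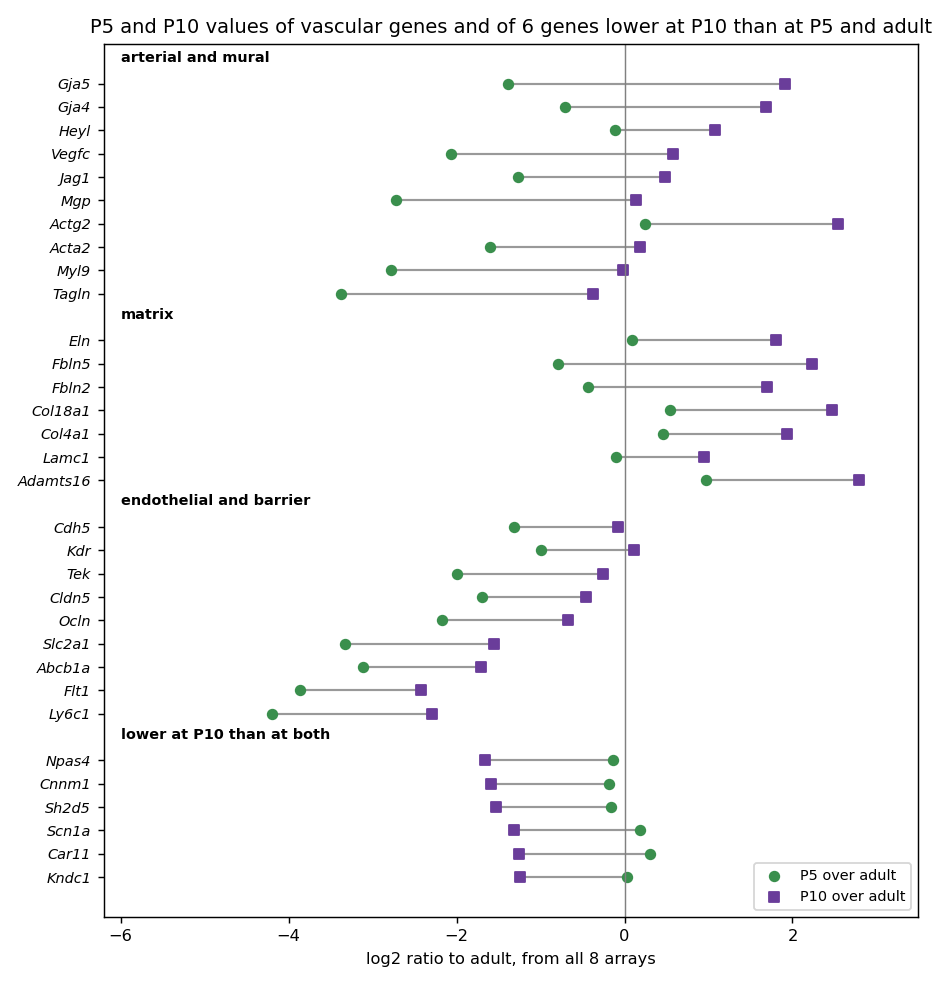
Log2 ratio to adult at P5 (circles) and at P10 (squares) from the fit of all 8 arrays, for vascular, matrix and barrier genes and for the 6 genes lower at P10 than at both other ages. Adult is at 0 by definition. Fbln5 and Gja5 lie below adult at P5 and more than 1.9 log2 units above it at P10, while Slc2a1, Abcb1a, Flt1 and Ly6c1 lie below adult at both ages and lowest at P5.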

How the data were processed

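Mouse forebrain microvessel RNA was hybridised on Agilent two-colour whole-genome arrays, and the 4 P10 and adult arrays form the main comparison. Each array's deposited file is Feature Extraction output of 44397 spots, in which spot and background intensity values are linear medians per channel, per the file headers. The deposited log10 ratio of each spot equals the ratio of the processed signals, after the authors' dye normalisation, for 84 to 88.7% of spots of these arrays within 0.001. The file headers give version 10.5.1.1 of that software, the submitters' processing notes 12.6. Ages, dyes and replicates come from the labels. Precision is limited by the number of arrays: 65.2 to 73.3% of probes were well above background in a channel.

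Background was corrected with normexp (offset 50) in limma 3.58.1 (R 4.3.3), after faulty spots more than 100 below background were set aside. Red to green log2 ratios were normalised by loess (span 0.3), with control spots and outliers at weight 0. Signs of dye-exchanged arrays were turned and the 2 arrays of a replicate averaged, so n = 2. Of 39429 probes, 25673 were kept as well above background in every channel of 1 age or more. A gene was its brightest probe. limma's moderated test (residual df 1, prior df 4.23) was adjusted by Benjamini-Hochberg over 20667 genes, 15075 with a symbol and 5592 under an accession that matched no symbol. A fit with 1 missing array was used for 216 genes. P5 and P10 were compared in a limma fit of all 8 arrays with the replicate as a block. The main ratio pairs ages within a replicate, since both ages share each array. Across genes, the deviations of P10 and adult from their group means in replicate 1 correlated at 0.768. The 2 channels of an array share its spot intensities, so this value cannot tell whether the samples themselves were paired. In simulated data of 20667 genes, 200 were changed at each fold tried. The P10 minus adult fit recovered 3% of genes changed 1.5-fold, 75.5% of those changed 2-fold and 97% of those changed 4-fold. Of its calls, 9.3% were unchanged genes, above the nominal 5%. The simulated share of changed genes was far below the 27.5% called on the real arrays, and the adjusted threshold depends on that share. These rates therefore do not carry over to the real comparison.

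Named genes were the 12 highest and 12 lowest called genes with the same sign on all arrays, up to 6 called members per list plus members described by role, and genes with opposite probes, opposite replicates or P10 extremes. The members and the 46 lists were chosen with earlier results of these data known, and some members are not reported here. Promoter sequences are RefSeq's, GRCm38.p6.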

Additional observations from a re-analysis of the deposited data

Results flagged for a closer look

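For 12 genes the difference from adult was not the same at P5 as at P10, by the limma test of P5 minus P10 in the fit of all 8 arrays (n = 2 replicates). All were picked by the smaller of their differences of P10 from adult and from P5, so the values are a description. Both differences contain the same P10 estimate and are not independent. Lower at P5 than at P10 were Gja5 (-3.3), Fbln5 (-3.02), Actg2 (-2.30), Col18a1 (-1.92), Adamts16 (-1.82) and Adh1 (-1.81), in log2 units. Higher at P5 than at P10 were Car11 (1.56), Npas4 (1.52), Scn1a (1.5), Cnnm1 (1.40), Sh2d5 (1.37) and Kndc1 (1.28). The comparisons of P5 and P10 with adult also have the adult channels in common.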

How the results depend on the processing

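Of the processing choices, the replicate block and the treatment of faulty spots changed the number of calls most. The 5674 called genes became 771 with no replicate block (389 higher, 382 lower) and 1883 with normexp fitted on every spot, faulty ones included (872 higher, 1011 lower). On the P10 and adult arrays these faulty spots were 4, all on the dye-exchanged array of slide 1. The fit of all 8 arrays gave 3904 (1878 higher, 2026 lower). Under the other alternatives for this comparison, from other background, normalisation, filter, probe and dye settings to a variance trend, the total stayed between 4393 and 6276. The alternative without the dye-exchanged array of slide 1, with 4927, was chosen after seeing the data. Called genes shared with any alternative kept their sign, except 1 gene with averaged probes and 1 with dye-exchanged arrays alone. For P5 minus P10, 8754 calls (4770 higher, 3984 lower at P5) became 5204 with no replicate block (2827 higher, 2377 lower), and median centring gave 3010 higher. The 24 genes furthest apart and the 12 P10 extremes kept sign and call in 459 of 468 comparisons with a test and lost the call in 9: Actg2, Cstdc5, Stfa1, Stfa2 and Stfa2l1 with normexp on every spot, and Car11, Fbln5, H1f5 and Scn1a with no replicate block. Called members of the lists were less stable: of 507 different genes, 309 were still called with normexp on every spot, 193 with no replicate block, and 417 to 505 under the other alternatives. Medians of the granulocyte, arterial, pericyte, microglia and VEGF lists, all near 0, changed sign under some setting. Leaving out a replicate leaves 1 ratio per gene and allows no test. With 2 replicates, and 65.2 to 73.3% of probes well above background in a channel, small differences were not detectable for many genes. The cause of these changes was not tested, beyond what the settings themselves change.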
